A study of Homo sapiens with 6 samples.

Results

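The androgen-regulated genes described here are 41 genes outside the kallikrein family that are known to be switched on by androgen in prostate cells. They were taken by gene name from the tables of all 6 libraries, with entries that share a name summed, and they are 41 of the 42887 gene symbols in use after small RNA classes were left out. All 41 were found. A filter on low levels, a mean of at least 1 FPKM (fragments divided by the gene's length and the library's total count) over the 6 libraries after scaling, left 38 of them in the test across lines. MSMB, STEAP4 and NNMT did not pass it and are described by their levels.

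RNA was sequenced from 3 castration-sensitive human prostate cancer cell lines, LNCaP, VCaP and LAPC4, and from 3 castration-resistant lines that carry their names, LNCaP-abl, VCaP-CR and LAPC4-CR. RPMI was the medium of LNCaP and LAPC4 and DMEM that of VCaP, and all 3 parents received 10% fetal bovine serum. The resistant lines were all kept in RPMI with 10% serum stripped of steroids on charcoal, plus the supplement B27, and no line received any further treatment. The comparison addresses how expression differs between the sensitive and the resistant state of prostate cancer cells. Each line gave 1 library. Medium and state differed together in all 3 pairs, and in the VCaP pair the base medium differed too, so the state of the line and its medium cannot be told apart. Whether a line is a single clone was not stated.

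Androgens are steroid hormones that switch on genes in prostate cells. In luminal cells the genes they induce include secreted proteins of seminal fluid, the machinery that folds and exports them, enzymes of polyamine and lipid synthesis, and regulators that feed back on steroid receptors. Charcoal removes steroids from serum, and cells grown in stripped serum are commonly used as cells deprived of androgen.

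Levels below are FPKM values divided by 1 factor per library (0.8471 to 1.1087) and are called scaled FPKM. A change is the resistant line minus its own parent on the log2(scaled FPKM + 1) scale, on which differences of weakly expressed genes come out too small. Counts of genes that were at least 2-fold lower or higher use this scale unless ratios are named. Levels of a pair are given with the parent first, and lists of 3 changes or percentages follow the order LNCaP, VCaP, LAPC4. Percentages of the parental level are ratios of scaled FPKM with exact 95% intervals from the counts. Those intervals cover counting error only. With 1 library per state in a line, a change within a pair has no replicate check. The test across lines compared the states over the 3 pairs with edgeR, so its p-values measure the spread between lines.

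Total counts ran from 8661337 in LNCaP to 22433655 in LAPC4-CR, and every resistant library was deeper than its parent's. Small RNA classes took 22.1% to 27.0% of the counts in the parental libraries and 13.0% to 21.5% in the resistant ones, lower in the resistant library of each pair. They were left out before scaling. Of 11 listed markers of basal epithelium, stroma, blood and endothelium, 10 were found, at 0.0820 to 1.66 scaled FPKM, and none was at 0 counts in any library. Their summed level was 3.45 to 6.27 in the sensitive and 2.73 to 5.87 in the resistant libraries. The 4 luminal markers lay between 1.60 and 105.1 scaled FPKM, the lowest being HOXB13 in LAPC4-CR. Several member values given below lie within the range of the non-luminal markers.

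RefSeq promoters were found for 31 of the 41 genes (build GRCh38.p14, ACPP under its current symbol ACP3), with 47 listed start sites. MSMB, TMPRSS2, TPD52, NNMT, PPAP2A, SORD, ELL2, MED28, ZBTB10 and GREB1 had none and were not searched for motifs. The 250 bases before the start of 4 of them are printed because these genes stand for the patterns described below. PTGER4 was lower in every resistant line, SLC45A3 was kept only in VCaP-CR, AGR2 was higher in every resistant line, and ACPP was higher in LNCaP-abl alone by 2-fold or more. The windows are chr5:40679665-40679914 on the plus strand for PTGER4, chr1:205680510-205680759 on the minus strand for SLC45A3, chr7:16805000-16805249 on the minus strand for AGR2 and chr3:132317157-132317406 on the plus strand for ACPP. Each is written 5′ to 3′ on the gene's strand, and capitals mark the GC box, GGGCGG or its reverse complement CCGCCC.
PTGER4: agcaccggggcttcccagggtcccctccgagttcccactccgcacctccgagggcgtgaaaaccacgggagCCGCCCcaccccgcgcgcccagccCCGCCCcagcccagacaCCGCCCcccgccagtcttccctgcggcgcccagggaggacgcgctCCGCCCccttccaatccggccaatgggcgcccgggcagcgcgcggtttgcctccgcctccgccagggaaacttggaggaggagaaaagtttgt
SLC45A3: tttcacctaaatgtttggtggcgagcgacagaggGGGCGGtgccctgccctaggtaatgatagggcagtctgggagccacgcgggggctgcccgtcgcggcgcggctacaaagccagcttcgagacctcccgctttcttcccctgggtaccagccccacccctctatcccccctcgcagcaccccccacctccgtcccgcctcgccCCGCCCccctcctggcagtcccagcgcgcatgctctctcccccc
AGR2: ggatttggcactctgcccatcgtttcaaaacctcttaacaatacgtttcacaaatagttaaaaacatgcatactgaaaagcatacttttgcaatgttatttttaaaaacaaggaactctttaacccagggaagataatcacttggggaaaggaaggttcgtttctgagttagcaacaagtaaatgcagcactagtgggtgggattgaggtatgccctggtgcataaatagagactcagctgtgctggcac
ACPP: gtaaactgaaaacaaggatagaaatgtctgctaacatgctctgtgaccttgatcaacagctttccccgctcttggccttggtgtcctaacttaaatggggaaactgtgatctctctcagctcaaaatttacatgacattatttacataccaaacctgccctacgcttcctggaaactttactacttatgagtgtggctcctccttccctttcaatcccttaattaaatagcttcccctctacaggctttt
A GC box stood in 33 of the 47 windows (70.2%), against 42.6% of all 35116 windows of the same length, and the median GC content was 67.6% against 58.0%. The 47 windows belong to 31 genes, and some windows of the same gene overlap, so a box can be counted more than once. PTGER4 had 4 GC boxes in a window of 72.8% GC and SLC45A3 had 2 in 69.2% GC. AGR2 and ACPP, with 40.4% and 42.0% GC, had 0. Of the genes lower in all 3 pairs, AZGP1, KCNN2, ABCC4, GNMT and MAF had 0 too. The others of these with a promoter had at least 1 box in some window. CREB3L4, higher by 2-fold or more in LAPC4-CR alone, had 1. Whether GC boxes go with the direction of change was not tested. The 6-base element AGAACA or its reverse complement TGTTCT, the core of the androgen response element, was found in 0 of the 47 windows and in 12.4% of all windows. The forkhead motif TGTTTAC or its reverse complement GTAAACA was found in 0 of 47 and in 3.0% of all windows. The letters TATAAA, searched on the gene's strand alone, were found in 1 of 47 windows, that of MAF, and in 6.8% of all windows. These are matches of letters in a short window and say nothing of binding.

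The androgen-regulated genes were mostly lower in LNCaP-abl and LAPC4-CR than in their parents, and mostly within 2-fold of the parent in VCaP-CR. At least 2-fold lower levels were seen for 20 of the 41 genes in the LNCaP pair, where 6.19% of all 16231 tested genes were that much lower. In the LAPC4 pair 16 of the 41 were at least 2-fold lower, against 5.28% of all tested genes. In the VCaP pair there were 2, ACPP and TPD52, against 2.03%. By the ratio of scaled FPKM itself, an alternative added after the data were seen, 25 genes held at most 0.5 times the parental level in LNCaP-abl (12.3% of all tested genes). That ratio was reached by 21 in LAPC4-CR (10.2%) and by 5 in VCaP-CR (5.1%), where MSMB, PTGER4 and MAF joined ACPP and TPD52. The median change of the 41 genes was -1.0 for LNCaP, -0.18 for VCaP and -0.64 for LAPC4, and that of all tested genes was -0.01, -0.01 and -0.02. Another list of 75 androgen-response genes, described below, had medians of -0.10, 0.11 and -0.10. The 41 genes were chosen with earlier results of these data known, so their shares are a description only. Below the parent by any amount were 34 of the 41 in the LNCaP lines (50.9% of all tested genes), 24 in the VCaP lines (51.4%) and 32 in the LAPC4 lines (51.7%). At least 1 pair was 2-fold or more lower for 25 of the 41 (12.2%) and 2-fold or more higher for 3 (12.4%). In these bulk libraries, fewer cells that express a gene and less RNA per cell cannot be told apart. At least 2-fold higher levels were seen for 1 gene in each pair. These were ACPP in LNCaP-abl (6.23% of all tested genes), ABHD2 in VCaP-CR (2.37%) and CREB3L4 in LAPC4-CR (5.22%).

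**Figure D1:**
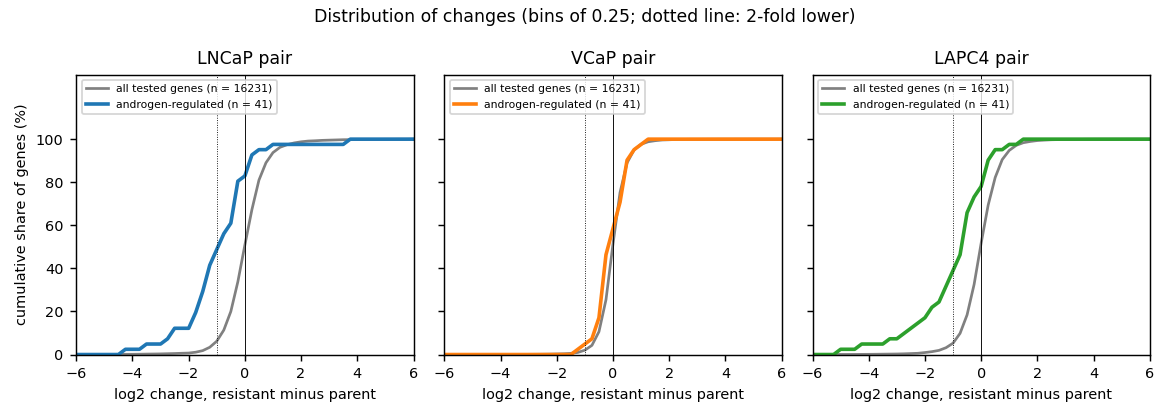
Cumulative share of genes (vertical axis, percent) by log2 change, resistant minus parent (horizontal axis), for the 41 androgen-regulated genes (coloured line) and the 16231 tested genes (grey line) in each pair; the dotted line marks 2-fold lower. The coloured line runs to the left of the grey one in the LNCaP and LAPC4 pairs, with medians of -1.0 and -0.64, and close to it in the VCaP pair, with a median of -0.18.

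Lower levels in all 3 resistant lines were measured for 17 of the 41 genes, where 16.7% of all tested genes were lower in all 3 pairs. Lower here means by any amount, also where the interval of a percentage includes the parental level. NNMT is counted although it did not pass the filter. They are AZGP1, KCNN2, ABCC4, UAP1, AMD1, GNMT, NNMT, ALDH1A3, FKBP5, CAMKK2, PTGER4, HOMER2, HERC3, EAF2, MAF, ZBTB10 and CENPN. On the log2(scaled FPKM + 1) scale, 0 of the 41 were at least 2-fold lower in all 3 pairs, a pattern seen in 0.0986% of all tested genes. PTGER4 came nearest to it, with changes of -1.58, -0.99 and -1.61. It passed 2-fold in all 3 pairs with a pseudocount of 0.25 in place of 1, or with scaling on protein-coding genes alone. By the ratio of scaled FPKM, PTGER4 and MAF were both at most 0.5 times their parents in all 3 pairs, as were 0.37% of all tested genes. The count of 17 was 20 without the LNCaP pair, 27 without the VCaP pair and 21 without the LAPC4 pair. With a pair left out the rule asks for 2 pairs only, so the count cannot fall. The share of all tested genes under that looser rule is not given here. Higher levels in all 3 resistant lines were measured for 2 genes, AGR2 and GREB1, against 15.1% of all tested genes, and 0 were higher by 2-fold or more in all 3 (0.0616%).

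For 13 genes the resistant line was on the log2(scaled FPKM + 1) scale at least 2-fold lower in both the LNCaP and the LAPC4 pair and not in the VCaP pair, a pattern shown by 0.752% of all tested genes. These 13 are AZGP1, TMPRSS2, SLC45A3, ABCC4, GNMT, ABHD2, HPGD, ALDH1A3, SORD, FKBP5, CAMKK2, PTGER4 and HOMER2. By ratio there were 16 (2.25%), with STEAP4, KCNN2, NNMT and ZBTB10 added and PTGER4 left out. No member was at least 2-fold lower in the VCaP pair and in 1 other pair only, which 0.191% of all tested genes were with the LAPC4 pair and 0.197% with the LNCaP pair. On the same log2 scale, at least 2-fold lower levels in the LNCaP pair alone were measured for 7 genes, KCNN2, UAP1, PPAP2A, HERC3, ELL2, MAF and CENPN (5.14% of all tested genes). In the LAPC4 pair alone there were 3, STEAP4, ZBTB10 and C1orf116 (4.24%). By ratio the LNCaP pair alone had 7, with AMD1 and MPHOSPH9 in place of KCNN2 and MAF (8.76%), and the LAPC4 pair alone had 3, PDIA5, EAF2 and C1orf116 (6.86%). ACPP, TPD52 and CREB3L4 are described below, and the remaining 15 genes had no 2-fold change in either direction in any pair on that scale, as had 76.7% of all tested genes. By ratio 8 of the 41 had none (60.3%), namely ODC1, SMS, ACSL3, DBI, LRIG1, MED28, GREB1 and NCAPD3. Across the 41 genes the changes in the LNCaP and LAPC4 pairs had a Pearson r of 0.46 and a Spearman rho of 0.58, against 0.11 and 0.09 over all tested genes. The VCaP changes had an r of -0.04 and a rho of 0.23 with the LNCaP changes, against 0.11 and 0.12 over all tested genes. With the LAPC4 changes they had an r of -0.01 and a rho of 0.07, against 0.18 and 0.20. These correlations are across genes, which are not independent, and the 2 changes compared share no library.

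**Figure D2:**
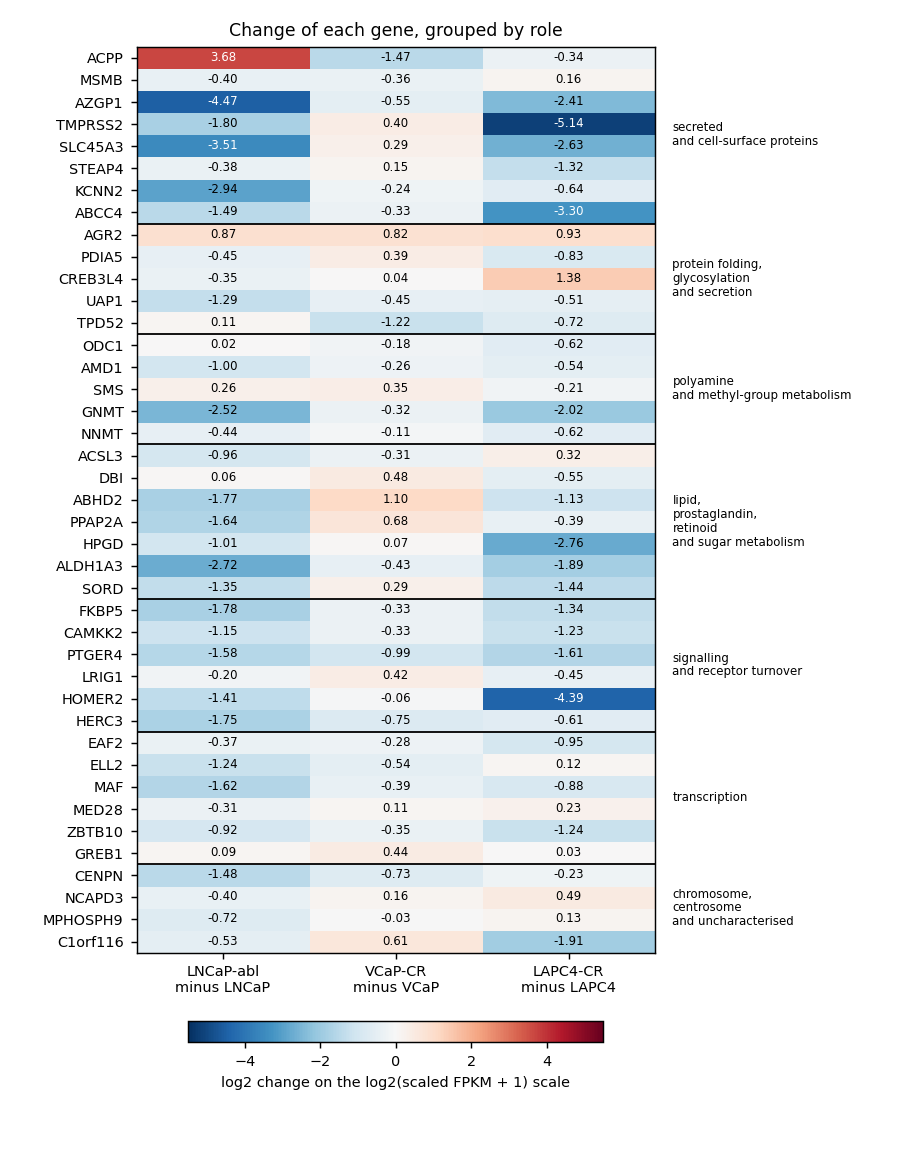
Change of each of the 41 genes (rows, grouped by role) in the 3 pairs (columns), as resistant minus parent on the log2(scaled FPKM + 1) scale, blue for lower and red for higher in the resistant line. The values run from -5.14 for TMPRSS2 in the LAPC4 pair to 3.68 for ACPP in the LNCaP pair, and the middle column, the VCaP pair, is the palest.

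With edgeR's quasi-likelihood test over the 3 pairs and Benjamini-Hochberg adjustment over 16231 genes, no gene of any kind passed 5%, so 0 members were called lower (0% of all tested genes) and 0 higher (0%). At an unadjusted p under 0.05, 13 of the 38 tested members were lower, against 3.38% of all tested genes, and 1, AGR2, was higher, against 4.49%. Without the lines as a block the 13 became 6 and the 1 became 0, while 161 of all tested genes were lower and 251 higher. DESeq2 called 3 members, PTGER4, MAF and ALDH1A3, all lower, among 55 lower and 83 higher calls over all genes, and limma called 0. Without the filter on low levels edgeR called those 3 and AZGP1, among 58 lower and 95 higher calls over 41666 genes. Leaving out the VCaP pair gave 2 calls among the members, SLC45A3 and ALDH1A3, both lower, among 20 lower and 13 higher calls over all genes. Leaving out the LNCaP pair gave 0 members among 5 lower and 0 higher calls, and leaving out the LAPC4 pair 0 among 1 lower and 3 higher.

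PTGER4, the prostaglandin receptor EP4 (ENSG00000171522, hg18 chr5:40715357-40729594), had the smallest p among the members. Its level was 3.76 against 0.598 scaled FPKM in the LNCaP lines, 2.14 against 0.582 in the VCaP lines and 11.5 against 3.09 in the LAPC4 lines. Each resistant line was below its parent, but LAPC4-CR lay above VCaP, so the groups overlapped. The resistant lines held 15.9% (10.2 to 24.0), 27.2% (17.9 to 40.5) and 26.9% (23.3 to 30.9) of the parental level. The mean change was -1.39 ± 0.35 (SD, n = 3 pairs). The edgeR log2 fold change was -2.11 with a standard error of 0.33, an unadjusted p of 0.00042 and an adjusted p of 0.567 by edgeR's quasi-likelihood test, lower in 3 of 3 pairs. Over the alternatives its adjusted p ran from 5.35e-05 with DESeq2 to 1.0 without the lines as a block.

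The other members of the signalling group differed between lines. FKBP5 is a co-chaperone of steroid receptors that androgen induces in prostate cells (ENSG00000096060, hg18 chr6:35649340-35804338). It measured 10.8 against 2.44 scaled FPKM in the LNCaP lines, 7.03 against 5.39 in the VCaP lines and 6.39 against 1.93 in the LAPC4 lines. All 3 resistant libraries lay below all 3 sensitive ones, and the share of the parental level was 22.6% (19.8 to 25.7) in LNCaP-abl, 76.7% (69.6 to 84.7) in VCaP-CR and 30.1% (27.0 to 33.6) in LAPC4-CR. CAMKK2, a kinase that activates AMPK, was 21.1 against 8.93 in the LNCaP lines, 19.0 against 14.9 in the VCaP lines and 19.9 against 7.89 in the LAPC4 lines. Its parental levels were almost level with each other and above all 3 resistant ones. HOMER2, a scaffold protein that links receptors to calcium channels, was 26.9 against 9.48 in the LNCaP lines, 81.5 against 78.1 in the VCaP lines and 37.0 against 0.812 in the LAPC4 lines. LAPC4-CR held 2.20% (1.56 to 3.01) of the parental HOMER2 level and VCaP-CR 95.9% (90.0 to 102), an interval that includes the parental level. On unscaled FPKM, HOMER2 was no longer lower in all 3 pairs.

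HERC3, a ubiquitin ligase of the HECT family, was 18.7 against 4.88 scaled FPKM in the LNCaP lines, 7.64 against 4.15 in the VCaP lines and 4.48 against 2.59 in the LAPC4 lines. It was lower in each pair, by 2-fold or more in the LNCaP pair alone, and the groups overlapped. LRIG1, which promotes the breakdown of EGF receptors, showed no 2-fold change, with changes of -0.20, 0.42 and -0.45. Of the 6 genes in this group, 5 were lower in all 3 pairs (16.7% of all tested genes) and 4 were lower at an unadjusted edgeR p under 0.05 (3.38%). The 4 are PTGER4, FKBP5, CAMKK2 and HERC3.

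All 3 resistant libraries were below all 3 sensitive ones for 6 of the 41 genes, GNMT, NNMT, ALDH1A3, FKBP5, CAMKK2 and MAF, where 3.22% of all tested genes showed that order. NNMT rested on 5 to 32 counts. The reverse order was shown by 0 members (3.44% of all tested genes).

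**Figure D3:**
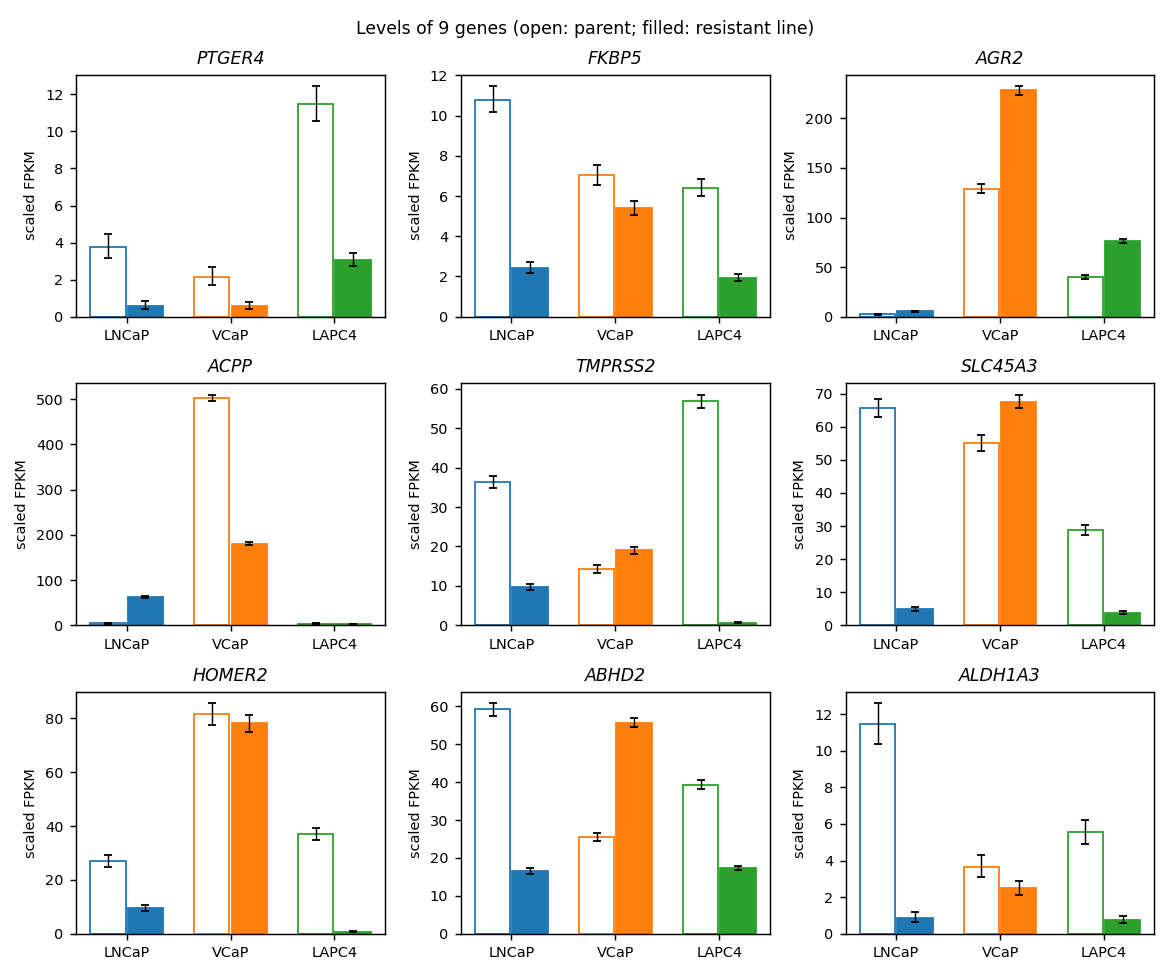
Levels (vertical axis, scaled FPKM, each panel on its own scale from 0) of 9 androgen-regulated genes in the 3 pairs; open bars are parents, filled bars resistant lines, and error bars are exact 95% intervals of the count. PTGER4 and FKBP5 were lower in each resistant line, AGR2 was higher in each, and TMPRSS2, SLC45A3 and HOMER2 were low in LNCaP-abl and LAPC4-CR but near the parental level or above it in VCaP-CR.

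Of the 8 genes for secreted and cell-surface proteins, 5 were at least 2-fold lower in LNCaP-abl (6.19% of all tested genes), 1 in VCaP-CR (2.03%) and 5 in LAPC4-CR (5.28%). AZGP1 encodes zinc-alpha-2-glycoprotein, a secreted protein of seminal fluid (ENSG00000160862, hg18 chr7:99402279-99411716). It was 26.0 against 0.219 scaled FPKM in the LNCaP lines, 2.54 against 1.41 in the VCaP lines and 75.8 against 13.5 in the LAPC4 lines. In LNCaP-abl it had 7 counts, against 651 in the parent, and its level lay within the range of the non-luminal markers. The share of the parental level was 0.842% (0.337 to 1.75) in LNCaP-abl, 55.5% (38.6 to 79.7) in VCaP-CR and 17.8% (16.5 to 19.2) in LAPC4-CR. The mean change was -2.48 ± 1.96 (SD, n = 3 pairs), with an adjusted p of 0.596 by edgeR's quasi-likelihood test. Its pseudogene copy AZGP1P1 had changes of -2.32, -0.17 and -1.52, and how reads common to both were counted is not given in the sources used here.

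TMPRSS2, a serine protease anchored in the membrane (ENSG00000184012, hg18 chr21:41758348-41824913), was 36.4 against 9.73 scaled FPKM in the LNCaP lines, 14.2 against 19.1 in the VCaP lines and 56.9 against 0.638 in the LAPC4 lines. LAPC4-CR, at 97 counts against 4492 in LAPC4, held 1.12% (0.907 to 1.37) of the parental level, LNCaP-abl 26.8% (24.5 to 29.2) and VCaP-CR 134% (124 to 146). VCaP is known to carry a fusion of TMPRSS2 to ERG, in which the TMPRSS2 promoter drives the transcription factor ERG. ERG was 16.9 against 5.46 scaled FPKM in the VCaP lines and at most 0.186 elsewhere. In the VCaP pair ERG thus had a change of -1.47 and TMPRSS2 a change of 0.40. HOXB13, a homeobox factor of the prostate, was 31.3 in LAPC4 and 1.60 in LAPC4-CR, a change of -3.64, beside changes of 0.16 and -0.29 in the LNCaP and VCaP pairs. Its part in the low TMPRSS2 and HOMER2 levels of LAPC4-CR was not tested.

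SLC45A3, a membrane transporter also called prostein (ENSG00000158715, hg18 chr1:203893602-203916210), was 65.8 against 4.87 scaled FPKM in the LNCaP lines, 55.0 against 67.6 in the VCaP lines and 28.9 against 3.83 in the LAPC4 lines. VCaP-CR was the highest of the 6 libraries, and the other resistant lines were below every parent. LNCaP-abl held 7.40% (6.40 to 8.52) of the parental level, LAPC4-CR 13.3% (11.8 to 14.9) and VCaP-CR 123% (116.4 to 129.7). The adjusted p was 0.603 by edgeR's quasi-likelihood test, 0.0166 with the VCaP pair left out, and 1.0 without the lines as a block, the lowest and highest over its alternatives. With the VCaP pair left out the comparison rested on 2 lines.

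ABCC4 and KCNN2, an efflux pump for cyclic nucleotides and prostaglandins and a calcium-activated potassium channel, were lower in all 3 pairs. ABCC4 was 17.1 against 5.45 scaled FPKM in the LNCaP lines, 23.4 against 18.4 in the VCaP lines and 15.9 against 0.712 in the LAPC4 lines, 4.48% (3.75 to 5.32) of the parent. KCNN2 was 8.71 against 0.270 in the LNCaP lines, 7.04 against 5.79 in the VCaP lines and 1.41 against 0.542 in the LAPC4 lines. The low line thus differed, LAPC4-CR for ABCC4 and LNCaP-abl for KCNN2, which there held 3.09% (1.63 to 5.37) of the parental level. Both genes overlapped between the groups because VCaP-CR stayed above at least 1 parent. STEAP4, a metalloreductase, was 1.95 in LAPC4 and 0.182 in LAPC4-CR, and no other library exceeded 0.649.

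ACPP, which encodes prostatic acid phosphatase (ENSG00000014257, hg18 chr3:133518901-133569832), was the member that stood far higher in LNCaP-abl than in its parent. It was 3.99 against 63.0 scaled FPKM in the LNCaP lines, 503.4 against 180.8 in the VCaP lines and 3.45 against 2.51 in the LAPC4 lines. LNCaP-abl was 15.8-fold (13.4 to 18.7) above its parent, from 155 to 3122 counts, while VCaP-CR held 35.9% (35.1 to 36.7) and LAPC4-CR 72.7% (60.1 to 88.2). The mean change of 0.62 ± 2.71 (SD, n = 3 pairs) was smaller than its spread. MSMB, the secreted protein beta-microseminoprotein, was at 0.168 to 1.28 scaled FPKM in all 6 libraries, on 5 to 59 counts.

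The genes for protein folding, glycosylation and secretion did not share a direction. AGR2, a disulfide isomerase of the secretory pathway (ENSG00000106541, hg18 chr7:16797960-16839582), was 2.43 against 5.26 scaled FPKM in the LNCaP lines, 129 against 228 in the VCaP lines and 39.6 against 76.4 in the LAPC4 lines. The resistant lines held 217% (162 to 293), 177% (170 to 184) and 193% (182 to 205) of the parental level, while the levels spread more widely across the 3 cell lines than between parent and resistant line. The mean change of 0.87 ± 0.06 (SD, n = 3 pairs) had the smallest SD relative to its size among the 41 genes. The edgeR log2 fold change was 0.97 with a standard error of 0.24, an unadjusted p of 0.0052 and an adjusted p of 0.593 by edgeR's quasi-likelihood test, higher in 3 of 3 pairs. CREB3L4, a transcription factor of the endoplasmic reticulum, was 27.7 against 21.5 in the LNCaP lines, 35.9 against 36.9 in the VCaP lines and 50.7 against 134 in the LAPC4 lines. LAPC4-CR thus held 264% (251 to 277) of the parental level, and the other pairs were within 2-fold.

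UAP1, which makes the UDP-N-acetylglucosamine used in glycosylation, was lower in all 3 pairs, at 101 against 40.6 scaled FPKM in the LNCaP lines, 32.7 against 23.6 in the VCaP lines and 66.2 against 46.2 in the LAPC4 lines. PDIA5, another disulfide isomerase, had changes of -0.45, 0.39 and -0.83. TPD52, a protein of membrane traffic, was 45.5 against 19.0 in the VCaP lines and had changes of 0.11, -1.22 and -0.72. It was 1 of 2 members that were at least 2-fold lower in VCaP-CR alone (1.54% of all tested genes), the other being ACPP, and by ratio MSMB made 3 (3.15%).

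**Figure D4:**
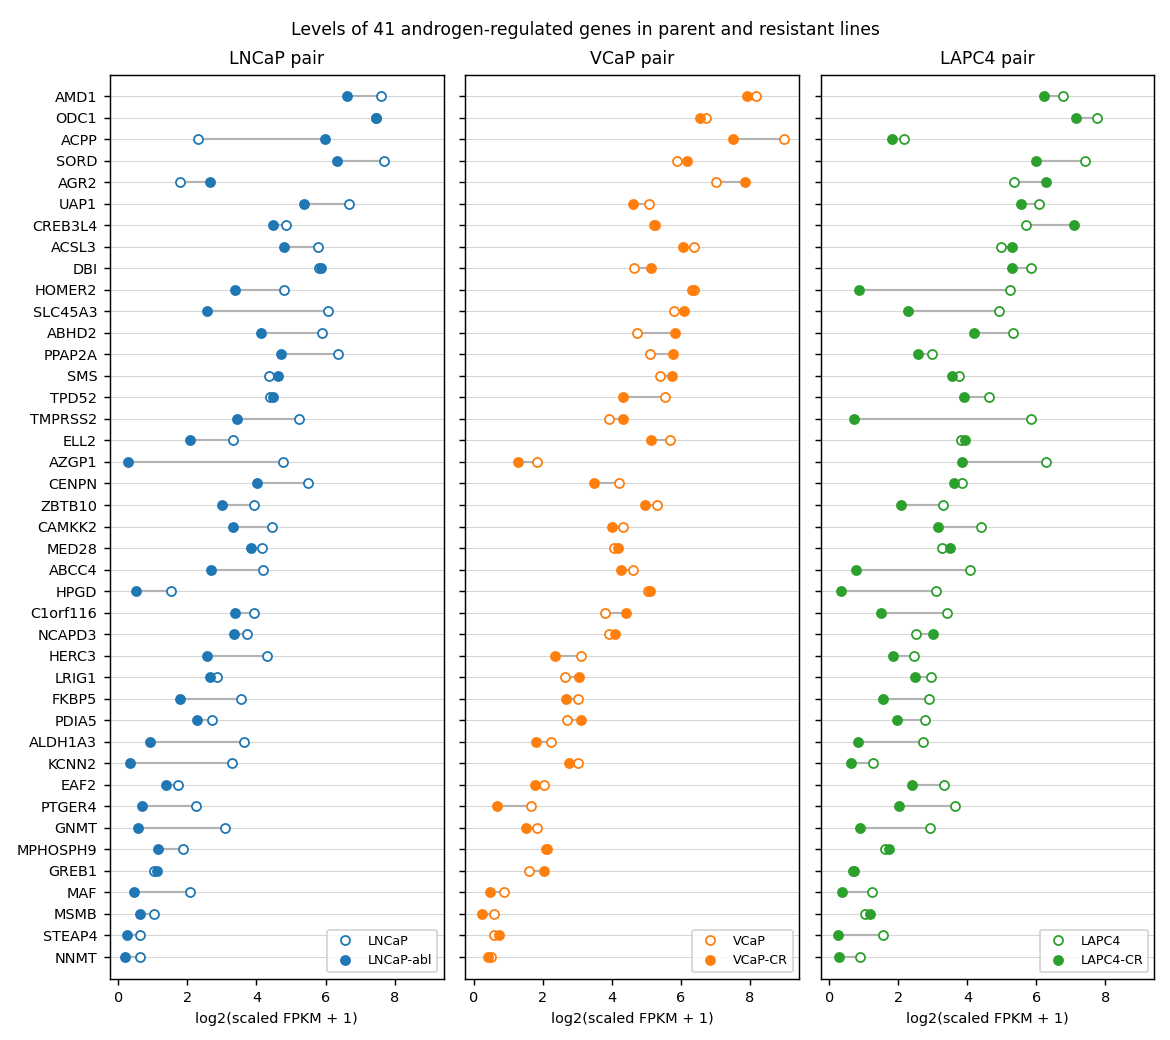
Level of each of the 41 genes (rows, ordered by mean level) as log2(scaled FPKM + 1) in the parent (open circles) and the resistant line (filled circles) of each pair. The longest lines joining a parent to its resistant line are those of AZGP1, ACPP and SLC45A3 in the LNCaP pair and of TMPRSS2, HOMER2 and ABCC4 in the LAPC4 pair, and those in the VCaP pair are all shorter.

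The enzymes of polyamine synthesis had no 2-fold change on the log2(scaled FPKM + 1) scale, and by ratio AMD1 in LNCaP-abl, at 49.9% (47.9 to 51.9) of its parent, lay at the limit. ODC1, the first enzyme of the pathway, was 174 against 177 scaled FPKM in the LNCaP lines, 106 against 93.3 in the VCaP lines and 216 against 140 in the LAPC4 lines. AMD1, which supplies the aminopropyl donor, was lower in all 3 pairs, at 194 against 96.7 scaled FPKM in the LNCaP lines, 290 against 242 in the VCaP lines and 107 against 73.6 in the LAPC4 lines. SMS, spermine synthase, had changes of 0.26, 0.35 and -0.21. GNMT and NNMT spend the methyl donor S-adenosylmethionine. GNMT, glycine N-methyltransferase, was 7.45 against 0.473 in the LNCaP lines, 2.58 against 1.86 in the VCaP lines and 6.57 against 0.863 in the LAPC4 lines. The groups did not overlap, and the resistant lines held 6.35% (2.26 to 14.5), 72.3% (42.0 to 125) and 13.1% (7.92 to 20.9) of the parent, on as few as 6 counts. The VCaP-CR interval includes the parental level. NNMT, nicotinamide N-methyltransferase, was at most 0.849 scaled FPKM in any library, on 5 to 32 counts, and lower in each resistant line. VCaP-CR, on 15 counts against 12 in VCaP, held 76.2% (33.3 to 178) of the parent, an interval that includes the parental level.

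The genes of lipid, prostaglandin, retinoid and sugar metabolism had median changes of -1.35, 0.29 and -1.13 over 7 genes, so the VCaP pair alone had a median above 0. ALDH1A3, which makes retinoic acid from retinal, was 11.5 against 0.884 scaled FPKM in the LNCaP lines, 3.67 against 2.48 in the VCaP lines and 5.55 against 0.768 in the LAPC4 lines. It was lower in 3 of 3 pairs with no overlap between the groups, and the resistant lines held 7.72% (5.46 to 10.7), 67.5% (53.4 to 85.3) and 13.9% (10.6 to 17.9). Its edgeR log2 fold change was -2.38 with a standard error of 0.64 and an adjusted p of 0.593 by edgeR's quasi-likelihood test, and the adjusted p ran from 0.00879 with DESeq2 to 1.0 without the lines as a block. HPGD, which inactivates prostaglandins, was 1.88 against 0.428 in the LNCaP lines, 32.0 against 33.6 in the VCaP lines and 7.48 against 0.255 in the LAPC4 lines. VCaP and VCaP-CR stood far above the other 4 libraries, and LAPC4-CR held 3.40% (2.35 to 4.79) of its parent.

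ABHD2, a lipid hydrolase, had opposite directions in the pairs, at 59.2 against 16.7 scaled FPKM in the LNCaP lines, 25.6 against 55.7 in the VCaP lines and 39.4 against 17.5 in the LAPC4 lines. LNCaP-abl held 28.1% (26.7 to 29.7), LAPC4-CR 44.3% (42.5 to 46.3) and VCaP-CR 218% (208 to 229). SORD, sorbitol dehydrogenase, was 207 against 80.3 in the LNCaP lines, 58.0 against 71.4 in the VCaP lines and 170 against 61.9 in the LAPC4 lines. It was again VCaP-CR that lay above its parent. PPAP2A, a lipid phosphatase, had changes of -1.64, 0.68 and -0.39. ACSL3, an acyl-CoA synthetase, had changes of -0.96, -0.31 and 0.32, and DBI, an acyl-CoA binding protein, 0.06, 0.48 and -0.55.

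Among the transcription regulators, MAF, a bZIP factor (ENSG00000178573), was low in every resistant line. It was 3.23 against 0.381 scaled FPKM in the LNCaP lines, 0.818 against 0.390 in the VCaP lines and 1.37 against 0.287 in the LAPC4 lines. The groups did not overlap, though the resistant values rested on 31 to 49 counts and lay within the range of the non-luminal markers. The parental values of VCaP and LAPC4 lay within that range too. The resistant lines held 11.8% (7.81 to 17.3), 47.7% (31.2 to 72.4) and 20.9% (14.7 to 29.3), and the adjusted p of 0.593 by edgeR's quasi-likelihood test ran from 0.0064 with DESeq2 to 1.0 without the lines as a block. ZBTB10, a zinc finger protein, was lower in 3 of 3 pairs, with changes of -0.92, -0.35 and -1.24. EAF2, a partner of the ELL elongation factors, was lower in 3 of 3 as well, with changes of -0.37, -0.28 and -0.95. LNCaP-abl held 68.0% (41.3 to 111) and VCaP-CR 76.8% (52.9 to 112) of the parent, intervals that include the parental level. ELL2, an elongation factor, was 8.90 against 3.19 in the LNCaP lines and 49.9 against 34.0 in the VCaP lines. In the LAPC4 lines, however, it was 13.0 against 14.2.

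GREB1, a nuclear receptor cofactor, was higher in each resistant line by small amounts, with changes of 0.09, 0.44 and 0.03. VCaP-CR held 153% (132 to 178) of the parent. LNCaP-abl held 113% (88.9 to 144) and LAPC4-CR 105% (81.8 to 135), intervals that include the parental level. With scaling on protein-coding genes GREB1 was no longer higher in all 3. MED28, a subunit of Mediator, had changes of -0.31, 0.11 and 0.23. In the remaining group CENPN, a protein of the centromere, was lower in 3 of 3 pairs, at 44.2 against 15.1 scaled FPKM in the LNCaP lines, 17.4 against 10.1 in the VCaP lines and 13.4 against 11.2 in the LAPC4 lines. NCAPD3, a condensin subunit, had changes of -0.40, 0.16 and 0.49, and MPHOSPH9, a protein of the centrosome, -0.72, -0.03 and 0.13. C1orf116, a gene of unknown function, was 9.73 in LAPC4 and 1.85 in LAPC4-CR, with changes of -0.53, 0.61 and -1.91.

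Of the 41 genes, 14 overlap another gene whose count in some library was at least 0.5 times their own lowest count. These are MSMB, TMPRSS2, PDIA5, CREB3L4, ODC1, GNMT, NNMT, PPAP2A, LRIG1, HERC3, GREB1, CENPN, NCAPD3 and MPHOSPH9. Whether the counting used strand is not given, so reads of overlapping genes cannot be told apart. The 41 genes lie on 16 chromosomes. The closest are TPD52 and ZBTB10, 0.25 Mb apart on chromosome 8. TPD52 had changes of 0.11, -1.22 and -0.72, and ZBTB10 of -0.92, -0.35 and -1.24. ODC1 and GREB1, 1.09 Mb apart, and PDIA5 and EAF2, 1.18 Mb apart, came next. SLC45A3 and C1orf116 lie 1.34 Mb apart on chromosome 1. SLC45A3 had changes of -3.51, 0.29 and -2.63, and C1orf116 of -0.53, 0.61 and -1.91.

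NR3C1, the glucocorticoid receptor, a steroid receptor that can switch on many androgen-regulated genes, was 0.518 against 6.94 scaled FPKM in the LNCaP lines and at most 0.914 elsewhere.

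Another list of androgen-response genes, 75 of 76 found, had median changes near 0. At least 2-fold lower were 7 in the LNCaP, 3 in the VCaP and 10 in the LAPC4 pair (6.19%, 2.03% and 5.28% of all tested genes). At least 2-fold higher were 5, 3 and 8 (6.23%, 2.37% and 5.22%). Its median changes were -0.10, 0.11 and -0.10. By edgeR's quasi-likelihood test 0 of its 72 tested genes passed 5% after adjustment, and at an unadjusted p under 0.05 there were 7 lower and 6 higher (3.38% and 4.49% of all tested genes). DESeq2 called 5 of the 72, KLK2, KLK3 and PMEPA1 lower and LIFR and SEC24D higher. Without the filter edgeR called KLK2, KLK3, PMEPA1 and LIFR of 75, without the VCaP pair KLK2 and KLK3, and without the LNCaP pair KLK3 and ADAMTS1. The adjusted p of KLK3 ran from 1.51e-05 without the filter to 1.0 without the lines as a block. The most negative mean changes were those of KLK3, KLK2 and PMEPA1. KLK3, the gene of prostate-specific antigen, was 610.2 against 0.649 scaled FPKM in the LNCaP lines, 327.5 against 19.2 in the VCaP lines and 108 against 2.02 in the LAPC4 lines. KLK2, a related protease, had changes of -5.19, -1.0 and -4.46, and PMEPA1, an inhibitor of TGF-beta signalling, of -3.82, -1.18 and -1.56. The most positive mean changes were those of LIFR, a cytokine receptor (1.04, 0.82 and 1.51), SEC24D, a coat protein of secretory vesicles (0.59, 1.05 and 1.21), and INSIG1, a regulator of cholesterol synthesis (0.83, 0.45 and 0.90).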

How the data were processed

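RNA-seq tables of 6 cell lines were used, 1 library per line. The authors deposited a whole-number count and an FPKM value for each of 51698 genes, per the file headers. The submitters' processing notes name HTSeq and build hg18. Neither the aligner nor the annotation or strand setting is given in those sources. The deposited FPKM was rebuilt within 1% from count, length and total for 100% of 246467 values of at least 0.1 FPKM. Printed hg18 starts are the deposited starts plus 1.

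Entries of small RNA classes (8763) were left out by the class column, and FPKM was divided by median-ratio factors over the 11600 genes that reached 1 FPKM in every library. The 16231 genes (11341 protein-coding) whose mean scaled FPKM reached 1 entered edgeR 4.0.16 (R 4.3.3) as deposited counts, with the quasi-likelihood test, TMM factors, the parental line as a block and Benjamini-Hochberg adjustment at 5%. Pairs come from the line names, and deviations from the group means correlated at 0.46 (LNCaP), 0.73 (VCaP) and 0.59 (LAPC4) within pairs. Scripts were tested on simulated data. Alternatives were DESeq2 1.42.0, limma 3.58.1, no block, other filters, pseudocounts and scalings, and leaving out each pair. Scaling on protein-coding genes, testing protein-coding genes alone and ratios with no pseudocount were chosen after seeing the data.

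Intervals are exact 95% intervals of counts. Members and lists were chosen with earlier results of these data known. Genes described in full are those lower in all 3 pairs, those at least 2-fold lower in 2 pairs and not in the other, and those at least 2-fold higher in any pair. For the list of other androgen-response genes, the 3 most negative and 3 most positive mean changes are named. Some listed genes are not reported here and were left out of the list counts. Others, such as AGR2 and GREB1, were named after their values were seen.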

Additional observations from a re-analysis of the deposited data

Results flagged for a closer look

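Genes were picked out here where a gene was at least 2-fold higher in the resistant line of 1 pair and at least 2-fold lower in that of another. Each line had 1 library per state, so these differences between pairs were not tested. ACPP had a change of 3.68 in the LNCaP pair and -1.47 in the VCaP pair, a difference of 5.15 on the log2 scale. ABHD2, the lipid hydrolase, had a change in the LNCaP pair that was lower than in the VCaP pair by a difference of -2.87, and the VCaP pair exceeded the LAPC4 pair by 2.23.

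Among genes outside the 41, UGT2B15 and UGT2B17 encode enzymes that inactivate androgens by glucuronidation and are repressed by androgen. UGT2B15 had changes of 3.87, -1.05 and -1.40 (LNCaP, VCaP, LAPC4), so the LNCaP pair exceeded the VCaP pair by 4.92 and the LAPC4 pair by 5.27. UGT2B17 had changes of 5.30, -1.52 and -0.74, a difference of 6.81 between the LNCaP and VCaP pairs. Both belong to a family of near-identical genes, among which reads can be misassigned.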

How the results depend on the processing

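None of the recomputed median and mean changes reversed in sign. Counts have no sign, so a reversal was not defined for them. The median changes of the 41 genes ran from -1.31 to -0.65 for LNCaP, from -0.26 to -0.01 for VCaP and from -1.03 to -0.48 for LAPC4. Mean changes of single genes moved by less than their spread in 169 of 182 recomputations. Calls by edgeR over all genes, 0 lower and 0 higher in the fit with the lines as a replicate block, were 55 and 83 with DESeq2, 58 and 95 without the filter, and 1 to 20 lower and 0 to 13 higher with each pair left out. They remained 0 without the replicate block, with limma, with a mean of at least 5 and over protein-coding genes. Members at an unadjusted p under 0.05 were 6 lower and 0 higher without the replicate block, in place of 13 and 1. Members lower in 3 of 3 pairs were 10 with a mean of at least 5, where fewer members were counted, and 20 to 27 with a pair left out. Members at least 2-fold lower in 3 of 3 pairs were 1 with a pseudocount of 0.25 and 1 with scaling on protein-coding genes, 2 with no pseudocount, and 0 to 13 with a pair left out. Members higher in 3 of 3 were 1 with a mean of at least 5, 1 with scaling on protein-coding genes, and 2 to 5 with a pair left out. With a pair left out, each of these counts over 3 of 3 pairs asks for 2 pairs only and so cannot fall. With a pseudocount of 5, members at least 2-fold lower in the LNCaP and LAPC4 pairs and not in VCaP were 6, those lower in the LAPC4 pair 9, and those higher in the VCaP pair 0. Members at least 2-fold higher were 2 in the LNCaP pair with a pseudocount of 0.25 or none, and 2 in the LAPC4 pair on unscaled FPKM. Members at least 2-fold lower in the VCaP pair were 5 with no pseudocount. The causes were not tested. Low counts, such as 6 for GNMT and 7 for AZGP1 in LNCaP-abl, limit what can be read from percentages of the parent.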

Other observations

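Genes that androgen represses differed between the lines, which was not tested. Of 7 such genes, 4 were at least 2-fold higher in LNCaP-abl, 2 in VCaP-CR and 0 in LAPC4-CR (6.23%, 2.37% and 5.22% of all tested genes). At least 2-fold lower were 0, 2 and 1 (6.19%, 2.03% and 5.28%), and in LAPC4-CR 7 of 7 lay below the parent (51.7%). OPRK1, the kappa opioid receptor, was 0.641 scaled FPKM in LNCaP and 154.9 in LNCaP-abl, and between 0.253 and 2.11 in the other 4 libraries. CXCR7, a chemokine receptor, was 22.3 in LNCaP and 94.7 in LNCaP-abl, with changes of -0.96 and -0.85 in the VCaP and LAPC4 pairs. In VCaP-CR the 2 were NOV, a secreted matricellular protein, with a change of 2.48, and FOLH1, prostate-specific membrane antigen, with a change of 1.03. MET, a receptor tyrosine kinase, was within 2-fold in all 3 pairs.

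Of 9 receptors and coregulators, 3 were higher and 0 lower at an unadjusted p under 0.05 by edgeR's quasi-likelihood test, and 0 passed after adjustment (4.49% and 3.38% of all tested genes at the unadjusted p). NCOA2, a coactivator of steroid receptors, was 7.97 against 39.2 scaled FPKM in the LNCaP lines, 16.2 against 37.5 in the VCaP lines and 7.17 against 13.1 in the LAPC4 lines. Its edgeR log2 fold change was 1.46 with a standard error of 0.34 and an adjusted p of 0.593 by edgeR's quasi-likelihood test, higher in 3 of 3 pairs. Over the alternatives its adjusted p ran from 0.0196 without the filter on low levels to 1.0 without the lines as a block, and DESeq2 called it too. NCOA3, a related coactivator, had changes of 1.84, 0.03 and 0.92, and NCOR1, a corepressor, of 0.95, 0.58 and 0.67, and with NCOA2 these were the 3. FOXA1, a forkhead factor that opens chromatin for steroid receptors, was 67.7 to 136.5 in all 6 libraries.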
